A study of Bos taurus with 23 samples.

Results

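The genes described here are the heat shock proteins and molecular chaperones of the bovine oocyte and early embryo. They are all genes on the array whose single platform symbol starts with HSPA, HSPB, HSPD, HSPE, HSPH, HSP90, DNAJ, PFDN, or with CCT or BAG and a digit, or is TCP1. Each gene was read from 1 probe set, the one with the highest mean over all arrays. The rule found 64 genes, carried by 98 probe sets, among the 9155 genes that have a probe set with 1 symbol. Levels are log2 expression values, on which a difference of 1 is a 2-fold difference. A gene was tested if its value was above 4 on at least 2 arrays, and 58 of the 64 were. The other 6 (DNAJC22, HSPA12B, HSPB2, HSPB6, HSPB8 and PFDN4) were at or below 4 on every array.

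Chaperones bind unfolded or partly folded proteins and keep them from aggregating while they fold, are transported or are handed over for degradation. HSP70 works in cycles of ATP hydrolysis that are started by J-domain proteins (the HSP40 or DNAJ family) and reset by nucleotide exchange factors such as the BAG proteins, HSPBP1 and HSPH1. HSP90 matures kinases and steroid receptors, the ring-shaped TRiC/CCT complex folds actin and tubulin that prefoldin delivers to it, and HSPD1 with its lid HSPE1 folds proteins in mitochondria. HSP70 genes are known from mouse embryos as some of the earliest genes that the embryo itself transcribes.

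Affymetrix arrays were hybridised with poly(A) RNA from 8 groups of cattle oocytes and embryos, 23 arrays in all. The 3 in vitro oocyte arrays are labelled as oocytes cultured in vitro, and the 3 in vivo oocyte arrays came from oocytes matured in the animal, taken on day 0 from follicles about to ovulate in 9 animals. Zygotes (3 arrays), 2-cell (2), 4-cell (2) and 8-cell embryos (4, a collection that reached up to 16 cells) were flushed from the oviducts of 24 cows 1 to 4 days after insemination with semen of 1 bull. Morulae (3 arrays) and blastocysts (3) were flushed from the uteri of 7 animals on day 7 or 8. Embryos were pooled, 5 blastocysts or 10 embryos of an earlier stage, so an array is the average of a pool and not of 1 embryo. Oocyte pool sizes were not given in the sources used here. Replicates are labelled biological. Follicle, oviduct and uterus samples came from separate collections, so stage and collection cannot be told apart at those borders. In pooled RNA, fewer cells and less RNA per cell cannot be told apart, and a level is relative to the other RNA on the same array.

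Some arrays differed from others of their label. In vivo oocyte array 2 had 6 of 22 cumulus and granulosa cell markers above 4 and more than 2 log2 units above both other arrays of its group (HSD17B1, INHA, INHBA, FST, CYP11A1 and HSD3B1), while FSHR, LHCGR, AMH and FOXL2 stayed at or below 4 on every array. Array 1 of the 4-cell group had 10 of 15 blood and leukocyte markers standing out in this way, array 1 of the 2-cell group 4 of 12 oviduct and uterine epithelium markers, and blastocyst array 1 and 8-cell array 3 had 2 of those 12 each (LTF and CLU). In vitro oocyte array 3 had 3 of the 22 cumulus and granulosa markers (INHA, TNFAIP6 and TIMP1). Without 8-cell array 3, 31 members passed from 4-cell to 8-cell and 34 from 8-cell to morula. With it, 32 passed at either step. Without in vitro oocyte array 3, 9 passed between the oocyte groups in place of 10. Shares of all genes were not counted in the fits that left an array out. The log2 of the summed level of the cumulus and granulosa list was 13.48 to 13.56 in the in vitro and 13.67 to 14.21 in the in vivo oocyte arrays. It was 13.08 to 13.52 at 4-cell, 9.63 to 10.37 at 8-cell, 12.12 to 13.16 at morula and 13.80 to 14.41 at blastocyst. That of the oviduct and uterine epithelium list was 10.63 to 13.91 at 4-cell, 8.20 to 11.37 at 8-cell, 14.81 to 15.24 at morula and 15.57 to 15.89 at blastocyst, while PAEP, PGR and OXTR were at or below 4 on every array. That of the blood and leukocyte list was 7.25 to 14.42 at 4-cell and 8.02 to 10.88 at 8-cell, and that of 6 sperm and testis genes went from 6.24 to 6.68 at 4-cell to 9.32 to 10.42 at 8-cell, with PRM1 and PRM2 at or below 4 throughout. Of the 12 oviduct and uterine epithelium genes, 3 to 4 were above 4 on the 4-cell arrays, 3 to 6 at morula and 5 to 6 at blastocyst. Summed levels of these lists thus moved at the same steps as many chaperones, and their part in the chaperone changes was not tested. Whether the embryo itself or other cells made these RNAs was not tested either. The mean of the 23 poly-A control probe sets was 8.93 to 10.28 on the 8-cell arrays, above the 7.74 to 7.94 of the 4-cell arrays and the 6.28 to 8.14 of the morula arrays. Centring the arrays on those controls and the 18 hybridisation controls together moved the median of all probe sets by -1.13 between 4-cell and 8-cell and by 1.39 between 8-cell and morula, so the differences below are relative to the other genes on the array. Centring on the poly-A controls alone gave shifts of -1.92 and 2.49.

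Most chaperone genes changed over the in vivo stages. By the F test of limma, a linear model fitted across all probe sets (adjusted p by Benjamini-Hochberg), over the 6 steps from in vivo oocyte to blastocyst, 54 of 58 members passed (93.1%), where 90.6% of the 7070 genes tested passed. A member's stage means spanned a median of 2.71 log2 units, from 0.32 for DNAJB11 to 10.49 for CCT6A. The span reached at least 2 units in 41 members and at least 4 in 15. The 8-cell stage held both the highest mean of 15 members and the lowest mean of 14. The blastocyst held the highest of 9 and the lowest of 11. Shares of all genes with such spans, or with their highest or lowest mean at these stages, were not counted.

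**Figure D1:**
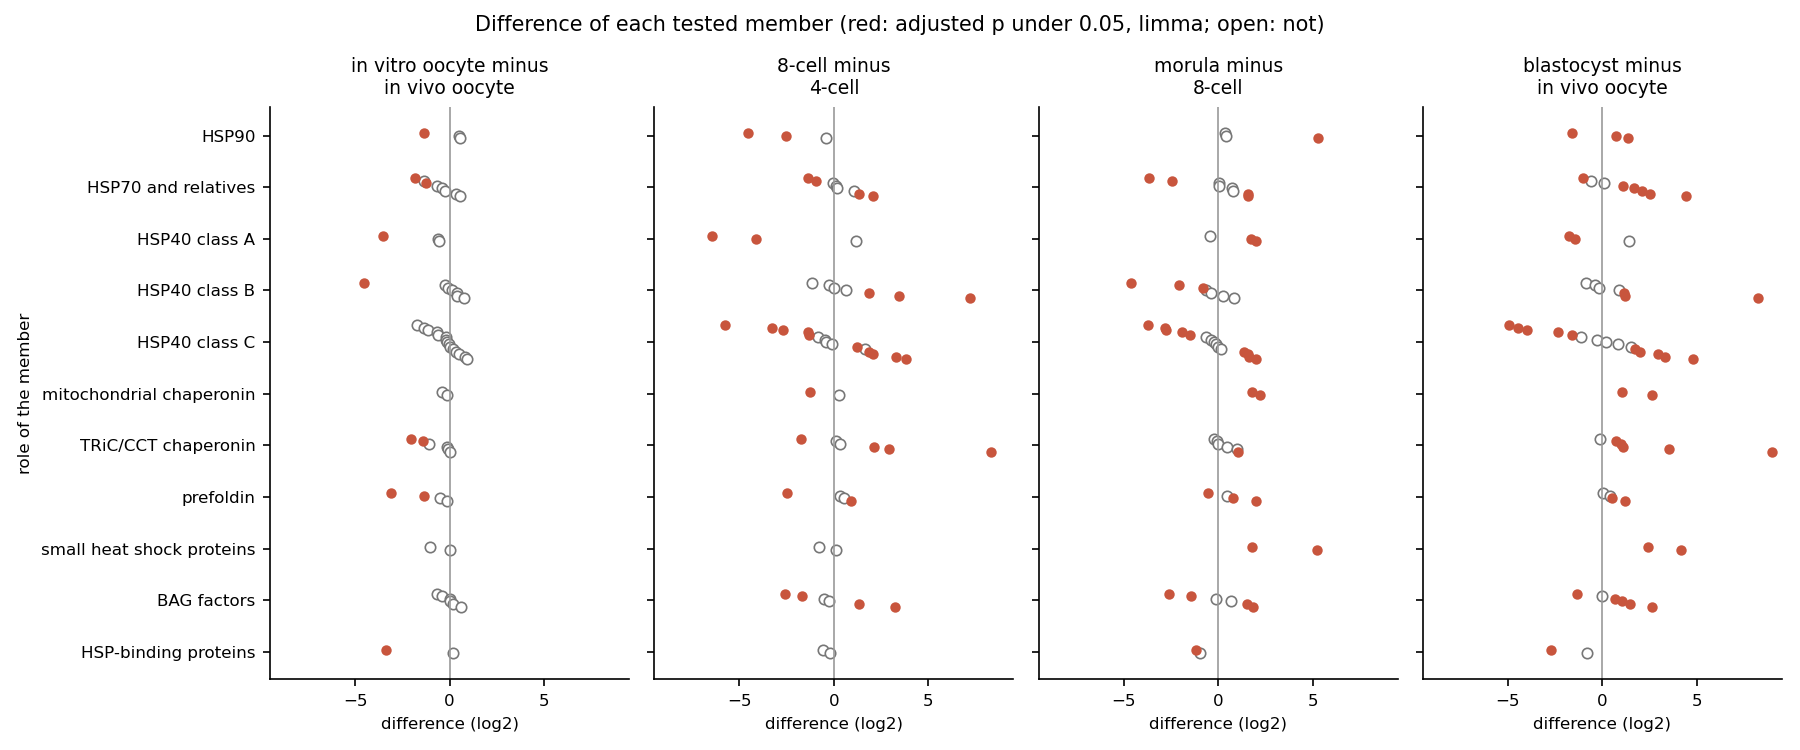
Difference in log2 level (x axis) of each of the 58 tested members, in rows by role, for 4 comparisons; a red point passed at adjusted p under 0.05 and an open point did not. In vitro minus in vivo oocyte differences ran from -4.52 to 0.94, and all 10 that passed were negative, that is, lower in vitro, whereas the 8-cell differences ran from -6.47 to 8.34 with 16 red points on each side.

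Few members passed at any single step from in vivo oocyte to 4-cell embryo. Many passed from 4-cell to 8-cell and again from 8-cell to morula. The 4-cell embryo was not compared with the oocyte directly, so changes that built up over the early steps were not tested. From 4-cell to 8-cell, 16 of 58 members rose and 16 fell at an adjusted p under 0.05, 27.6% each way, where 31.2% of all genes tested rose and 34.3% fell. The arrays of both groups did not overlap for any of the 32. The share over all genes was not counted, so this is no result about the members. The median difference was -0.01 over the members and -0.03 over all genes tested. Under centring on both kinds of spike-in control the split was 7 higher and 25 lower, and under poly-A control centring 3 and 33. From 8-cell to morula, 18 members rose (31%) and 14 fell (24.1%), against 30% and 28.4% of all genes tested. The split was 37 higher and 4 lower under spike-in centring and 45 and 1 under poly-A centring. Shares of all genes were not counted under these centrings. The 8-cell arrays are shared by both of these comparisons.

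From in vivo oocyte to blastocyst, 30 of 58 members rose (51.7%) and 11 fell (19%), where 36.2% of all genes tested rose and 32.7% fell. The median difference was 0.85 over the members and 0.08 over all genes. All 6 TRiC/CCT subunits but CCT8 were among the risers, as were both mitochondrial chaperonin genes, 5 of 8 HSP70 genes and 4 of 6 BAG factors, while class C of the J-domain proteins had 5 in each direction. The split moved to 23 and 15 with arrays centred on their median, to 12 and 16 with spike-in centring, to 16 and 11 with hybridisation control centring and to 7 and 18 with poly-A centring. Which direction held more members thus differed between scalings, and shares of all genes were not counted under them. Of the TRiC/CCT, mitochondrial chaperonin, HSP70 and BAG risers, only the CCT4, CCT6A and HSPA5 calls held under every alternative setting. The CCT3 call also ended without in vivo oocyte array 2 (0.30). Poly-A centring turned the signs of CCT2, CCT3, CCT5, HSPE1, HSPH1, BAG2 and BAG6.

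Of the HSP90 genes, HSP90AB1 and HSP90B1 fell at the 8-cell stage and HSP90AA1 did not pass. HSP90AB1, the constitutive cytosolic HSP90, was at 11.95, 11.99 and 11.78 in in vivo oocytes, 11.84, 11.96 and 11.64 in zygotes, 11.57 and 11.72 in 2-cell and 11.50 and 11.52 in 4-cell embryos. It was at 6.73, 7.51, 7.30 and 6.27 in 8-cell embryos, at 12.68, 11.82 and 12.16 in morulae and at 12.75, 12.44 and 12.72 in blastocysts. All 4 of the 8-cell arrays lay below every array of any other group. It fell by 4.56 ± 0.29 (SE) from 4-cell to 8-cell, a 23.6-fold difference (adjusted p = 7.38e-11), and rose by 5.27 ± 0.25 to the morula, a 38.6-fold difference (adjusted p = 2.64e-12).

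HSP90AA1, the stress-inducible cytosolic HSP90, showed no such dip. It was at 13.89, 12.47 and 13.38 in in vivo oocytes, 13.32, 13.43 and 14.02 in zygotes, 14.56 and 14.63 in 2-cell and 14.70 and 14.67 in 4-cell embryos. It stood at 14.41, 14.07, 14.11 and 14.38 in 8-cell embryos, 14.61, 14.62 and 14.64 in morulae and 14.52, 14.56 and 14.75 in blastocysts. Its 8-cell difference from 4-cell was -0.44 ± 0.27 (adjusted p = 0.161) and that of the morula from 8-cell 0.38 ± 0.24 (adjusted p = 0.187). It rose by 1.36 ± 0.25 from oocyte to blastocyst (adjusted p = 9.15e-05), a call that ended under spike-in centring (0.53). The oocyte-to-blastocyst rise of HSP90AB1 was 0.72 ± 0.27 (adjusted p = 0.025), and its sign turned under spike-in (-0.11) and poly-A (-0.48) centring. That call also ended without in vivo oocyte array 3 (0.66), blastocyst array 1 (0.67) or blastocyst array 3 (0.68). HSP90B1, the HSP90 of the endoplasmic reticulum, had group means of 12.75 at 4-cell, 10.19 at 8-cell and 10.62 at morula. It fell by 2.55 ± 0.50 at the 8-cell stage (adjusted p = 0.00018).

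Among the HSP70 genes, HSPA1A and HSPA2 stood high through the cleavage stages and fell at the morula. HSPA1A, the stress-inducible HSP70, was at 12.17, 10.65 and 11.39 in in vivo oocytes and at 13.24, 13.53 and 13.03 in zygotes. The zygote arrays were all above the oocyte arrays, and the rise of 1.87 ± 0.47 was 3.64-fold (adjusted p = 0.0332). It was the only member that passed at this step, 1 of 58, where 0.891% of all genes tested rose and 2.28% fell. No member fell there, also none at an unadjusted p under 0.05, at which 6 were higher. No share of all genes was counted at that limit. The call ended when the probe sets of the gene were averaged (0.75) and when in vivo oocyte array 2 was left out (1.49), and also without in vivo oocyte array 3 (1.86) or any 1 of the zygote arrays (1.73 to 1.98). Without in vivo oocyte array 2, 6 members passed: DNAJC6 was higher in zygotes, and DNAJA3, PFDN1, HSPA5, CCT3 and CCT4 were lower. The share of all genes was not counted in that fit, so these 6 are not set against a background.

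HSPA1A read 13.27 and 12.23 in 2-cell, 13.23 and 12.76 in 4-cell and 13.75, 14.36, 14.23 and 13.82 in 8-cell embryos. It then read 10.99, 10.61 and 9.59 in morulae and 12.32, 10.28 and 11.91 in blastocysts. Every morula array was below every 8-cell array, and the fall of 3.64 ± 0.44 was 12.5-fold (adjusted p = 7.50e-07). It ended as a call under poly-A centring, where the difference was -1.14. The symbol HSPA1A covers a pair of near-identical gene copies in cattle, HSPA1A and HSPA1B, and the signal cannot be assigned to either copy here.

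The 5 other probe sets with the symbol HSPA1A did not all move together, and 4 of them were tested. One of them had means of 9.89 in in vivo oocytes, 12.25 in zygotes, 13.35 in 8-cell embryos and 7.97 in morulae, and passed as higher in zygotes (2.36, adjusted p = 0.0245) and lower in morulae (-5.38, adjusted p = 5.47e-08). Another had means of 12.28 at 4-cell and 8.58 at 8-cell, a fall of 3.70 (adjusted p = 2.46e-05). A further one rose by 0.97 from 8-cell to morula (adjusted p = 0.0162), and the last one fell by 0.94 at that step (adjusted p = 0.00335). The zygote rise was thus seen on 2 probe sets and the morula fall on 3, and neither on every probe set with this symbol.

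HSPA8, the constitutive cytosolic HSP70, was at 14.25, 13.06 and 13.77 in in vivo oocytes, 13.76, 14.49 and 14.35 in zygotes, 14.46 and 14.51 in 2-cell and 13.80 and 14.45 in 4-cell embryos. It was at 15.31, 15.59, 15.70 and 15.26 in 8-cell embryos, 15.61, 15.38 and 15.55 in morulae and 15.19, 15.49 and 15.45 in blastocysts. All arrays from 8-cell on lay above all earlier ones. The 8-cell rise of 1.34 ± 0.25 was 2.53-fold (adjusted p = 0.0001), a call that ended under spike-in centring (0.23) and a sign that turned under poly-A centring (-0.55). HSPA2, an HSP70 that is abundant in testis, had means of 12.61 at 4-cell, 12.71 at 8-cell and 10.24 at morula, and fell by 2.46 ± 0.33 at that last step (adjusted p = 2.97e-06). That call ended under spike-in centring (-1.06), and the sign turned under poly-A centring (0.04).

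HSPA5, the HSP70 of the endoplasmic reticulum (BiP), rose from oocyte to blastocyst. It was at 8.82, 8.02 and 8.56 in in vitro oocytes, 11.37, 8.22 and 9.91 in in vivo oocytes, 8.48, 8.79 and 8.89 in zygotes, 11.08 and 10.24 in 2-cell and 11.48 and 10.06 in 4-cell embryos. It read 12.82, 12.85, 12.72 and 13.04 in 8-cell embryos, 14.56, 13.03 and 13.25 in morulae and 14.01, 14.59 and 14.13 in blastocysts. The 3 in vivo oocyte arrays differed by over 3 units among themselves, and all blastocyst arrays were above them. The rise from oocyte to blastocyst was 4.41 ± 0.56, 21.3-fold (adjusted p = 8.41e-07), and a second probe set of the gene rose by 2.78 (adjusted p = 0.000666). HSPA9, the mitochondrial HSP70, had means of 11.83 at 8-cell and 13.39 at morula and rose by 1.56 ± 0.22 (adjusted p = 4.95e-06). HSPH1, an exchange factor of the HSP110 family, was lower by 0.96 ± 0.28 at the 8-cell stage (adjusted p = 0.00584), and both of its other tested probe sets fell there too (-1.88 and -2.43).

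**Figure D2:**
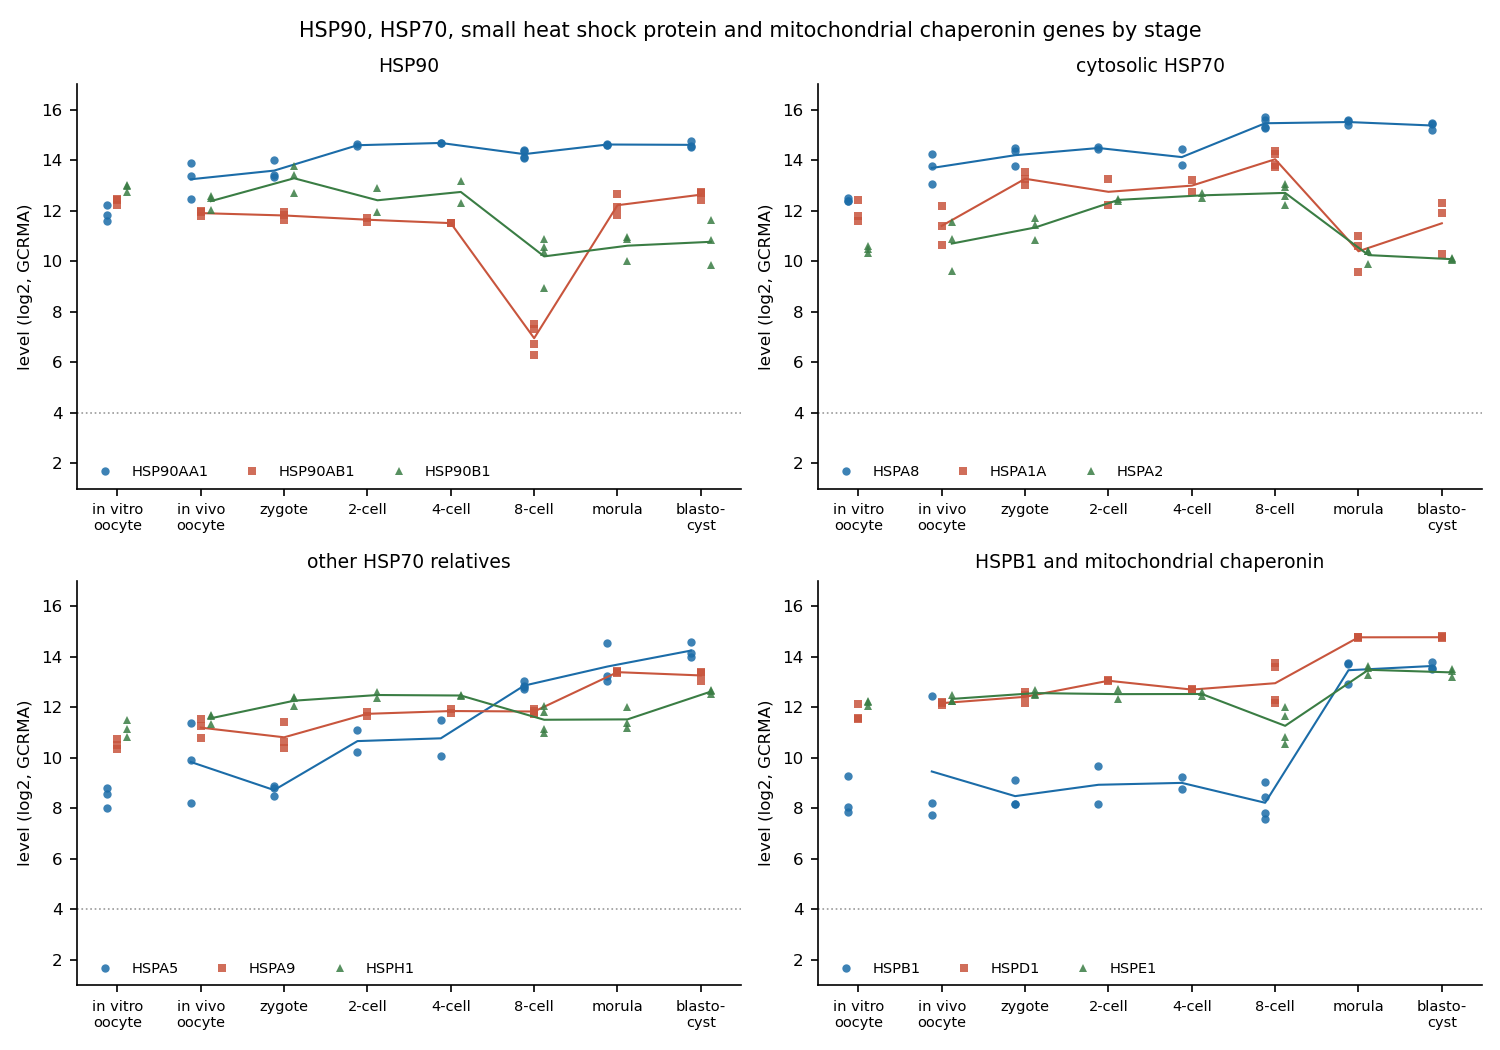
Log2 level (y axis) of 12 HSP90, HSP70, small heat shock protein and mitochondrial chaperonin genes in each group (x axis); each point is 1 array, lines join the means of the in vivo groups, and the dotted line is the value of 4 used as the filter. HSP90AB1 sits at 6.27 to 7.51 in the 8-cell arrays only, and HSPB1 at 12.94 or more from the morula on, with 1 in vivo oocyte array at 12.44.

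The J-domain proteins moved in both directions. From 4-cell to 8-cell, class A had 0 risers and 2 fallers of 3 tested, class B 3 and 0 of 7, and class C 5 and 5 of 15. From 8-cell to morula the counts were 2 and 0 in class A, 0 and 3 in class B and 4 and 5 in class C. DNAJB1, the main J-domain partner of cytosolic HSP70 in the heat shock response, was at 10.42, 8.17 and 8.72 in in vivo oocytes, 9.18, 8.86 and 9.90 in zygotes, 10.63 and 11.11 in 2-cell and 11.08 and 11.04 in 4-cell embryos. It reached 14.21, 14.85, 14.96 and 13.96 in 8-cell embryos and was at 9.83, 9.80 and 9.95 in morulae and 10.89, 9.98 and 9.88 in blastocysts. The 8-cell arrays were above all others. The rise was 3.43 ± 0.52, 10.8-fold (adjusted p = 1.08e-05), and it ended as a call under poly-A centring (1.54). The fall to the morula was 4.63 ± 0.46, 24.8-fold (adjusted p = 6.49e-08). A second DNAJB1 probe set had means of 10.42 at 4-cell, 9.25 at 8-cell and 4.13 at morula. It did not peak at 8-cell (difference -1.17, adjusted p = 0.0513), and to the morula it fell by 5.12 (adjusted p = 1.04e-08). From in vivo oocyte to blastocyst it fell by 4.48 (adjusted p = 9.07e-08), whereas the first probe set was counted among the risers (1.15). No direction is given for the gene over that span.

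DNAJB9, a J-domain protein of the endoplasmic reticulum, was nearly unseen before the 8-cell stage. It read 2.58, 2.54 and 2.70 in in vitro oocytes, 2.49, 2.50 and 2.51 in in vivo oocytes, 2.56, 2.74 and 2.52 in zygotes, 3.31 and 2.50 in 2-cell embryos, and 7.65 and 2.57 in 4-cell embryos. It then read 12.16, 12.30, 12.75 and 12.15 in 8-cell embryos, 12.19, 11.70 and 11.97 in morulae and 10.25, 11.30 and 10.69 in blastocysts. The 4-cell array at 7.65 is array 1, the array on which 10 of 15 blood and leukocyte markers stood out, and the part of such cells in this value was not tested. The rise from 4-cell to 8-cell was at least 91.3-fold (log2 difference 7.23 ± 0.78, adjusted p = 1.25e-07), counting values below 4 as 4. From oocyte to blastocyst it was at least 107-fold (adjusted p = 7.12e-09).

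DNAJC24, which takes part in making the diphthamide residue of elongation factor 2, was at 3.36, 3.45 and 3.22 in in vitro oocytes, 3.38, 3.65 and 3.40 in in vivo oocytes, 3.42, 3.41 and 3.76 in zygotes, 3.35 and 3.93 in 2-cell and 3.93 and 3.41 in 4-cell embryos. It was at 7.32, 7.06, 7.40 and 8.25 in 8-cell embryos, 8.64, 8.56 and 9.47 in morulae and 8.21, 8.39 and 8.21 in blastocysts. All arrays up to 4-cell were below 4 and all later ones at 7.06 or above. The 8-cell rise was at least 11.4-fold (adjusted p = 1.04e-08) and that from oocyte to blastocyst at least 19.3-fold (adjusted p = 1.44e-10). Another probe set of the gene rose at both steps, by 3.34 and 3.67.

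Class A held the deepest fall. DNAJA4, a cytosolic co-chaperone of HSP70, was at 8.91, 9.21 and 8.50 in in vitro oocytes, 10.25, 8.51 and 9.66 in in vivo oocytes, 9.49, 9.68 and 10.31 in zygotes, 10.89 and 10.65 in 2-cell and 11.17 and 11.28 in 4-cell embryos, and at 5.29, 4.34, 4.91 and 4.49 in 8-cell embryos. In morulae it was at 6.71, 6.08 and 6.75 and in blastocysts at 7.91, 7.45 and 7.77. The 8-cell arrays were the lowest of all 23. It fell by 6.47 ± 0.42, 88.6-fold (adjusted p = 9.89e-11), and rose by 1.76 ± 0.37 to the morula (adjusted p = 0.000437). DNAJA1, another cytosolic class A protein, was at 10.86, 10.02 and 9.70 in in vitro oocytes, 11.02, 10.51 and 10.68 in in vivo oocytes, 10.09, 9.74 and 10.54 in zygotes and 11.85 and 12.46 in 2-cell embryos. It was then at 12.00 and 12.32 in 4-cell embryos, 7.47, 7.86, 8.69 and 8.21 in 8-cell embryos, 10.79, 9.22 and 10.21 in morulae and 7.69, 10.80 and 9.28 in blastocysts. Its 8-cell fall was 4.10 ± 0.60, 17.2-fold (adjusted p = 6.29e-06), and its rise to the morula 2.02 ± 0.53, 4.06-fold (adjusted p = 0.00295). The blastocyst arrays were too far apart to place it against the morula (difference -0.82). DNAJA3, a mitochondrial J-domain protein, did not pass at the 8-cell stage (1.16).

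Class C falls named by size were those of DNAJC18, DNAJC27, DNAJC17 and DNAJC6. DNAJC18, of the endoplasmic reticulum membrane, was at 11.33, 11.50 and 11.34 in in vitro oocytes, 10.27, 11.30 and 11.11 in in vivo oocytes, 11.54, 11.27 and 11.00 in zygotes, 10.72 and 10.78 in 2-cell embryos, 10.40 and 10.58 in 4-cell embryos, 5.15, 3.54, 3.96 and 6.25 in 8-cell embryos, 4.60, 4.59 and 4.69 in morulae and 6.87, 5.97 and 5.04 in blastocysts. It stayed low after the 8-cell stage. The 8-cell fall was at least 49.8-fold (log2 difference -5.76 ± 0.57, adjusted p = 3.45e-08), and from oocyte to blastocyst it fell by 4.93 ± 0.53, 30.5-fold (adjusted p = 1.06e-07).

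DNAJC27, which joins a small GTPase to a J domain, was at 9.23, 9.37 and 9.00 in in vitro oocytes, 7.86, 8.67 and 8.27 in in vivo oocytes, 8.66, 7.87 and 8.81 in zygotes, 7.80 and 8.50 in 2-cell and 7.85 and 8.55 in 4-cell embryos. It was at 7.14, 5.77, 7.37 and 7.21 in 8-cell embryos, 2.82, 3.12 and 3.57 in morulae and 3.51, 4.04 and 3.79 in blastocysts. The fall to the morula was at least 7.32-fold (log2 difference -3.70 ± 0.38, adjusted p = 9.98e-08) and ended as a call under poly-A centring (-1.20), and that from oocyte to blastocyst was at least 19-fold (adjusted p = 9.87e-09). DNAJC17 was at 11.17, 11.03 and 11.35 in in vitro oocytes, 11.21, 11.50 and 11.35 in in vivo oocytes, 11.31, 11.47 and 11.63 in zygotes, 10.74 and 11.15 in 2-cell and 10.82 and 10.96 in 4-cell embryos. Its mean was lower at each later stage, with 8.98, 9.71, 10.34 and 9.12 in 8-cell embryos, 7.95, 8.02 and 8.13 in morulae and 7.71, 7.63 and 6.78 in blastocysts. From oocyte to blastocyst this was a fall of 3.98 ± 0.32, 15.8-fold (adjusted p = 1.32e-09). DNAJC6, auxilin, which uncoats clathrin vesicles with HSP70, was at 7.03, 7.47 and 7.02 in in vitro oocytes, 6.69, 8.26 and 7.20 in in vivo oocytes, 8.89, 8.89 and 9.90 in zygotes, 9.55 and 10.34 in 2-cell and 9.42 and 10.31 in 4-cell embryos. It was at 6.57, 6.45, 8.46 and 7.28 in 8-cell embryos, 4.48, 4.41 and 4.46 in morulae and 5.29, 4.15 and 5.61 in blastocysts, with every morula array below every 8-cell array. It fell by 2.74 ± 0.49, 6.7-fold (adjusted p = 8.39e-05), and that call ended under poly-A centring (-0.24).

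DNAJC3 and DNAJC10 lie with HSPA5 in the endoplasmic reticulum. Both rose from 4-cell to 8-cell (1.84 and 2.08) and from oocyte to blastocyst (2.95 and 3.31). The 8-cell calls of both ended under spike-in centring (0.73 and 0.97), and for DNAJC3 the sign turned under poly-A centring (-0.06). One other DNAJC10 probe set went the other way at the 8-cell stage, with means of 7.37 and 5.54, and the DNAJC10 call ended when its probe sets were averaged (0.52). DNAJC9, a chaperone of histones, fell by 3.30 ± 0.28 at the 8-cell stage (adjusted p = 5.73e-09) and rose by 1.60 ± 0.25 to the morula (adjusted p = 1.93e-05).

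**Figure D3:**
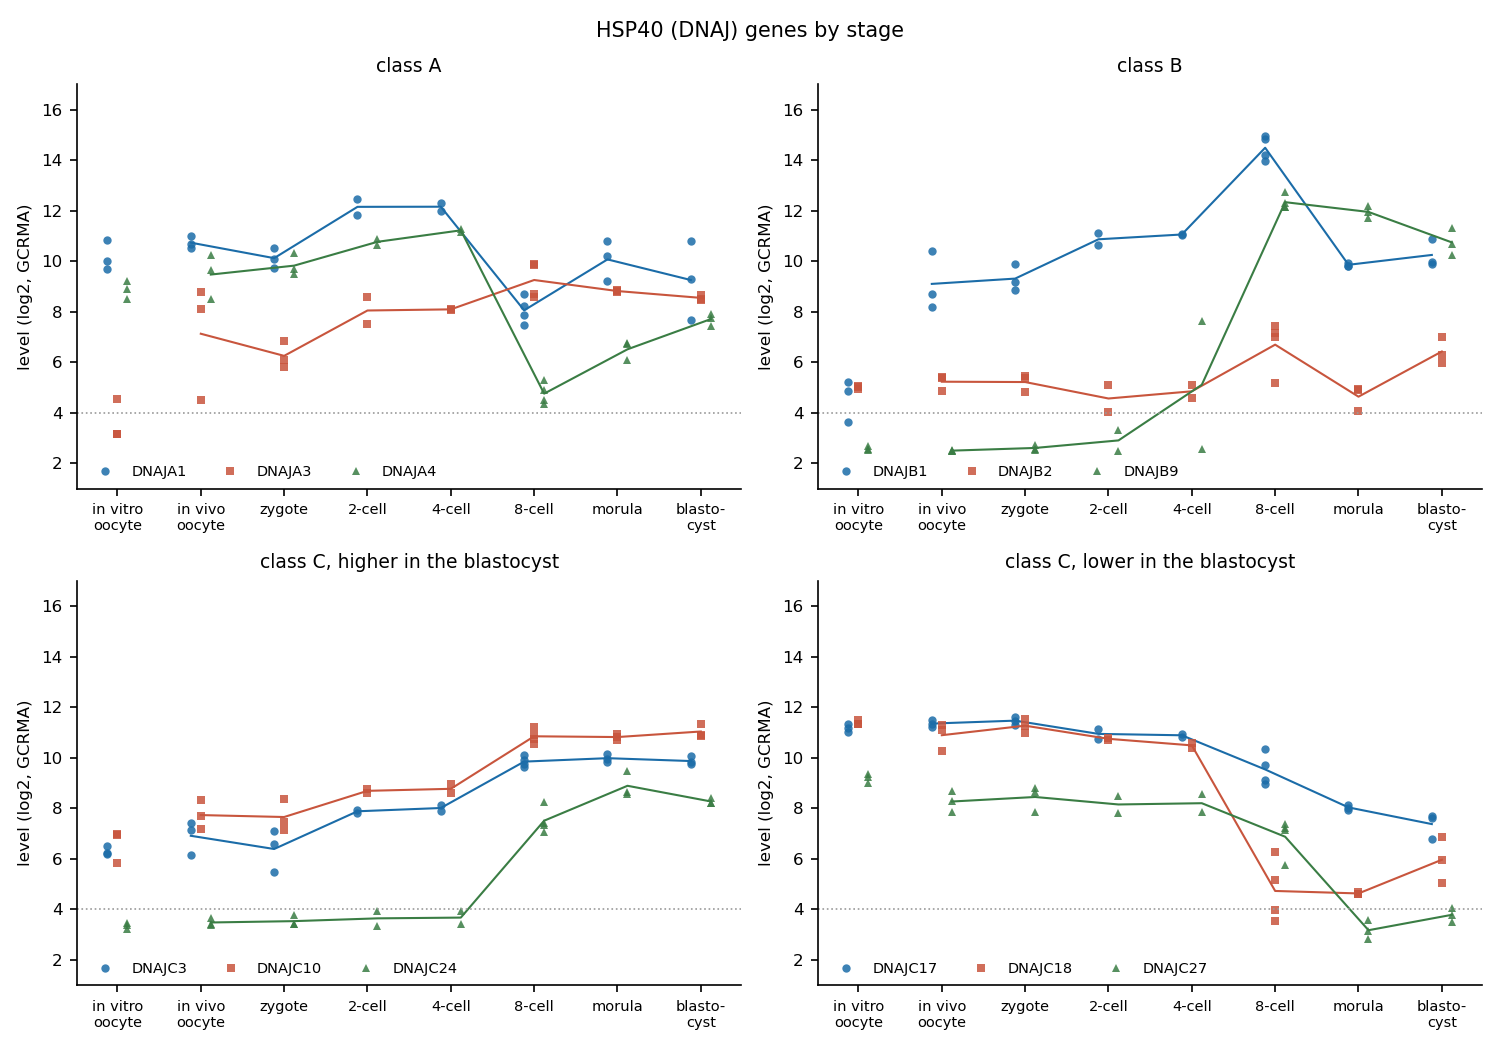
Log2 level (y axis) of 12 J-domain protein genes in each group (x axis); each point is 1 array, lines join the means of the in vivo groups, and the dotted line marks 4. DNAJB1 peaks at 13.96 to 14.96 in the 8-cell arrays, DNAJA4 is lowest there at 4.34 to 5.29, and DNAJB9 is above 10 from the 8-cell stage on with 1 of the 4-cell arrays at 7.65.

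The mitochondrial chaperonin rose at the morula. HSPD1 (HSP60) was at 12.18, 12.21 and 12.10 in in vivo oocytes, 12.15, 12.50 and 12.59 in zygotes, 13.06 and 13.04 in 2-cell, 12.68 and 12.72 in 4-cell and 12.18, 13.74, 13.59 and 12.30 in 8-cell embryos. It was at 14.76, 14.78 and 14.77 in morulae and 14.82, 14.73 and 14.77 in blastocysts. The 8-cell arrays fell into a higher and a lower pair, and all of them were below the morula arrays. HSPE1 (HSP10) was at 12.25, 12.50 and 12.24 in in vivo oocytes, 12.53, 12.48 and 12.67 in zygotes, 12.31 and 12.73 in 2-cell, 12.45 and 12.60 in 4-cell, 10.84, 11.66, 12.01 and 10.55 in 8-cell embryos, 13.64, 13.26 and 13.55 in morulae and 13.20, 13.43 and 13.51 in blastocysts. Arrays 1 and 4 of the 8-cell group were the low pair for both genes. This split was not particular to them. Arrays 1 and 4 were also lower than the other 8-cell arrays for BAG1 (9.27 and 9.14 against 11.14 and 11.72) and HSPA14 (9.44 and 9.38 against 10.62 and 11.15). For HSPA4 they were higher (12.86 and 12.79 against 11.54 and 11.37). The cause of the split was not tested. From 8-cell to morula HSPD1 rose by 1.81 ± 0.28, 3.51-fold (adjusted p = 1.98e-05), and HSPE1 by 2.22 ± 0.25, 4.65-fold (adjusted p = 3.47e-07). From 4-cell to 8-cell HSPE1 fell by 1.26 ± 0.29 (adjusted p = 0.000719), while HSPD1 differed by 0.25 ± 0.32 (adjusted p = 0.522).

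The 6 TRiC/CCT subunits measured, which sit in a common ring in the assembled complex, differed in direction at the 8-cell stage, where 3 rose, 1 fell and 2 did not pass. CCT6A was at 2.50, 2.55 and 2.84 in in vitro oocytes, 2.53, 6.0 and 2.57 in in vivo oocytes, 2.56, 2.55 and 2.56 in zygotes, 5.29 and 2.54 in 2-cell and 4.91 and 2.56 in 4-cell embryos. It was at 11.66, 12.38, 12.46 and 11.79 in 8-cell embryos, 12.95, 13.07 and 13.13 in morulae and 12.47, 12.71 and 12.83 in blastocysts. The only arrays above 4 before the 8-cell stage were in vivo oocyte array 2, 2-cell array 1 and 4-cell array 1, on which 6 cumulus, 4 epithelial and 10 leukocyte markers stood out. In vitro oocyte array 3, with 3 cumulus markers standing out, and in vivo oocyte array 1, with CD44, CD52 and CD3E, read 2.84 and 2.53. The part of other cells in the 3 values above 4 was not tested. The 8-cell rise was at least 196-fold (log2 difference 8.34 ± 0.80, adjusted p = 2.55e-08) and the rise from oocyte to blastocyst at least 256-fold (8.97 ± 0.76, adjusted p = 3.15e-09).

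CCT8 had the smallest 8-cell difference of the 6 subunits. It was at 14.21, 14.41 and 14.31 in in vitro oocytes, 14.41, 14.41 and 14.10 in in vivo oocytes, 14.41, 14.68 and 14.42 in zygotes, 14.41 and 14.73 in 2-cell, 14.31 and 14.65 in 4-cell, 14.48, 14.76, 14.65 and 14.55 in 8-cell embryos, 14.33, 14.36 and 14.44 in morulae and 14.06, 14.23 and 14.20 in blastocysts. It passed in none of the 8 comparisons, and the 8-cell difference was 0.13 ± 0.13. CCT4 rose 7.47-fold at the 8-cell stage (means 11.22 and 14.12) and CCT5 4.38-fold (10.25 and 12.39); the CCT4 call ended under poly-A centring (1.01) and the CCT5 call under spike-in centring (1.03). CCT2 was at 13.38, 12.54 and 12.92 in in vivo oocytes, 12.92, 13.09 and 13.89 in zygotes, 14.29 and 14.62 in 2-cell and 14.34 and 14.35 in 4-cell embryos. All 4 arrays of the 2-cell and 4-cell groups were above the earlier ones. The step to 2-cell was a rise of 1.16 ± 0.25, 2.23-fold (adjusted p = 0.0134), and was the only call among 58 members there, where 1.41% of all genes tested rose and 1.92% fell. At an unadjusted p under 0.05, 15 members were higher and 0 lower. The share of all genes at that limit was not counted, so these 15 are not set against a background. The call ended without zygote array 1 (0.97), without zygote array 2 (1.05), without 2-cell array 2 (0.99) and under each centring on controls (1.23 to 1.99). Without zygote array 3 there were 5 calls, CCT2, DNAJC3, HSP90AA1, DNAJC10 and HSPA9, with no share of all genes counted. CCT2 then fell 3.29-fold to 12.65, 12.63, 12.58 and 12.63 in 8-cell embryos (adjusted p = 2.78e-06) and rose 2.1-fold to 13.76, 13.51 and 13.81 in morulae (adjusted p = 0.000196). Blastocysts were at 13.47, 13.80 and 13.80, and in vitro oocytes at 13.08, 12.76 and 12.61. CCT3 passed at no step between neighbouring in vivo stages. It was at 11.47, 11.65 and 12.26 in zygotes, 12.48 and 12.94 in 2-cell, 12.76 and 12.82 in 4-cell, 13.07, 13.25, 13.32 and 12.72 in 8-cell embryos, 13.51, 13.43 and 13.67 in morulae and 12.87, 13.12 and 13.04 in blastocysts.

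Of the 4 tested prefoldin subunits with a PFDN symbol, 1 rose and 1 fell at the 8-cell stage. PFDN1 was at 11.37, 11.36 and 12.45 in zygotes, 13.36 and 13.49 in 2-cell, 13.46 and 12.95 in 4-cell, 10.47, 11.16, 10.77 and 10.44 in 8-cell embryos, 12.56, 12.56 and 13.07 in morulae and 11.42, 12.30 and 12.37 in blastocysts. The 8-cell arrays were below all other embryo arrays, with a fall of 2.50 ± 0.60 (adjusted p = 0.00114) and a rise of 2.02 ± 0.53 (adjusted p = 0.00284). PFDN6 was higher by 0.92 ± 0.24 at the 8-cell stage (adjusted p = 0.00233) with the sign turned under spike-in (-0.19) and poly-A (-0.97) centring. PFDN2 rose by 0.76 from 8-cell to morula and PFDN5 by 1.20 from oocyte to blastocyst. The PFDN5 call ended under spike-in (0.37), hybridisation control (0.84) and poly-A (-0.00) centring, and the PFDN2 call under hybridisation control centring (0.76).

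Of the small heat shock proteins, HSPB1 and HSPB3 were tested. HSPB1 (HSP27), which binds unfolded proteins without ATP and steadies actin filaments, was at 7.86, 8.04 and 9.27 in in vitro oocytes, 8.21, 12.44 and 7.72 in in vivo oocytes, 9.12, 8.16 and 8.16 in zygotes, 9.68 and 8.18 in 2-cell, 9.25 and 8.76 in 4-cell and 9.05, 7.58, 7.81 and 8.43 in 8-cell embryos. It was at 12.94, 13.74 and 13.72 in morulae and 13.53, 13.56 and 13.81 in blastocysts. The morula and blastocyst arrays were above all earlier ones, and of the earlier ones only in vivo oocyte array 2, with its 6 cumulus and granulosa markers, came within 1 unit of them. The part of such cells in that value was not tested. The rise to the morula was 5.25 ± 0.76, 38-fold (adjusted p = 8.16e-06), and a second probe set of the gene rose by 1.68 (adjusted p = 0.00111) to a mean of 3.55, still below 4. HSPB3 had means of 2.73 at 8-cell and 4.50 at morula, and 2 of its 3 morula arrays were still below 4.

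Of the BAG factors, which release ADP from HSP70 and link it to other pathways, 2 rose (BAG1 and BAG5) and 2 fell (BAG2 and BAG4) at the 8-cell stage. BAG1 was at 9.12 and 8.82 in 4-cell and 9.27, 11.14, 11.72 and 9.14 in 8-cell embryos, and its call (1.34) ended without 4-cell array 1 (1.49), 4-cell array 2 (1.20), 8-cell array 2 (1.07) or 8-cell array 3 (0.88). BAG5 had means of 6.11 at 4-cell, 9.37 at 8-cell and 6.74 at morula, a rise of 3.26 ± 0.55 (adjusted p = 3.34e-05) and a fall of 2.62 ± 0.48 (adjusted p = 0.000118), and another probe set moved by 2.60 and -3.43. Neither call held under poly-A centring (1.37 and -0.12), and the second also ended under spike-in centring (-1.22). BAG4 had means of 7.09 at 4-cell, from 8.06 on array 1 and 6.11 on array 2, and 4.51 at 8-cell. The 4-cell array 1 is the array with leukocyte markers standing out, and the part of such cells in this value was not tested. BAG2, an inhibitor of the ubiquitin ligase CHIP, fell by 1.68 and rose by 1.84 at those steps, but its other probe set did the reverse, 3.98 and -2.26, so no direction is given for the gene.

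**Figure D4:**
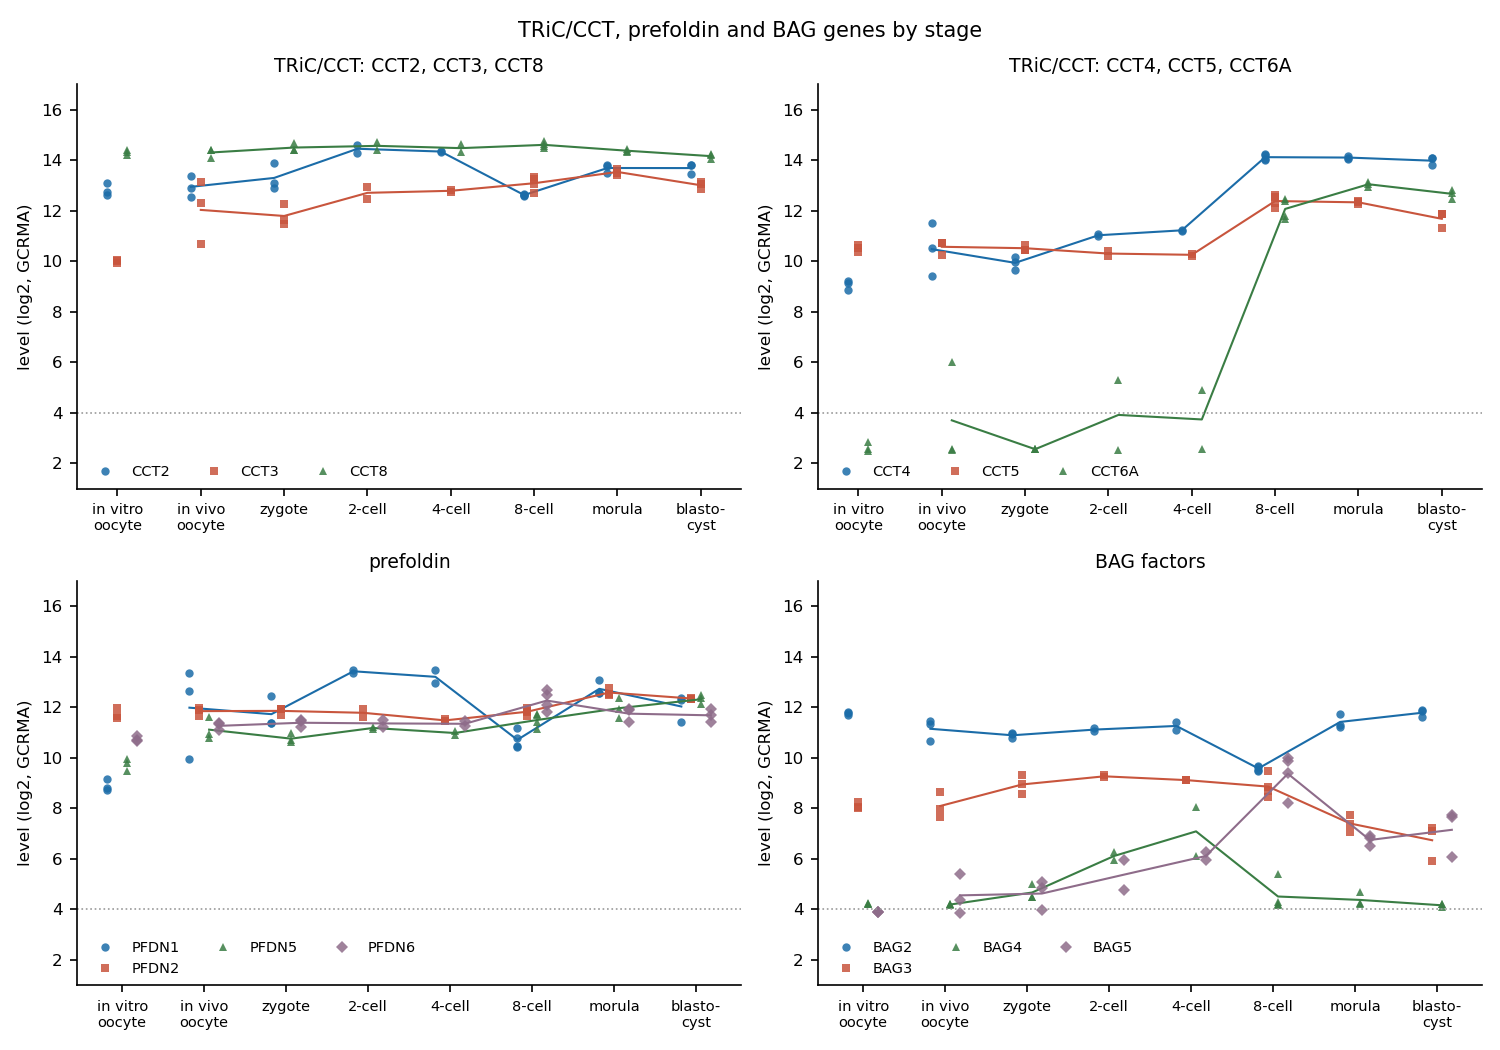
Log2 level (y axis) of TRiC/CCT, prefoldin and BAG genes in each group (x axis); each point is 1 array, lines join the means of the in vivo groups, and the dotted line marks 4. CCT6A is at or below 6.0 before the 8-cell stage and at 11.66 or above from it on, while CCT8 stays between 14.06 and 14.76 on all arrays.

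In vitro oocytes had lower levels of several chaperone mRNAs than in vivo oocytes. Of 58 members, 10 were lower in vitro (17.2%) and 0 higher, where 11.7% of all genes tested were lower and 0.721% higher. At an unadjusted p under 0.05, 3 members were higher and 15 lower, with no share of all genes counted. The 10 were DNAJB1, DNAJA3, HSPBP1, PFDN1, PFDN5, CCT3, CCT4, HSPA4, HSPA8 and HSP90AA1. They come from every role except the BAG factors, class C, the mitochondrial chaperonin and the small heat shock proteins. The median difference was -0.19 over the members and 0.02 over all genes. Arrays of both groups did not overlap for 9 of the 10, the exception being DNAJA3, and the share over all genes was not counted.

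DNAJB1 read 5.23, 4.86 and 3.65 in vitro and 10.42, 8.17 and 8.72 in vivo. The difference of -4.52 ± 0.49 was at least 21.2-fold (adjusted p = 2.21e-05). The second DNAJB1 probe set had means of 7.98 and 8.66, a difference of -0.68 (adjusted p = 0.491), so this call rests on 1 probe set. HSPBP1, an exchange factor of HSP70, was at 3.54, 6.91 and 6.55 in vitro and 9.98, 7.81 and 9.22 in vivo, a difference of -3.34 ± 0.67 or at least 9.08-fold (adjusted p = 0.00306). In the embryos it was at 8.80, 9.11 and 9.52 in zygotes, 9.77 and 9.68 in 2-cell, 9.39 and 9.33 in 4-cell, 9.06, 9.54, 9.66 and 8.40 in 8-cell embryos, 8.82, 7.76 and 8.01 in morulae and 7.88, 8.74 and 7.88 in blastocysts, and it passed at none of the embryo steps. PFDN1 was at 8.79, 8.72 and 9.17 in vitro and 13.37, 9.95 and 12.63 in vivo, a difference of -3.10 ± 0.56, 8.55-fold (adjusted p = 0.00153). CCT3 was at 10.00, 9.93 and 10.04 in vitro and 13.13, 10.68 and 12.29 in vivo, a difference of -2.05 ± 0.38, 4.13-fold (adjusted p = 0.00188). For both of these genes the in vitro arrays spread over less than 1 unit and the in vivo arrays over more than 2 units.

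HSPA8 was at 12.40, 12.37 and 12.49 in vitro, below all 3 in vivo arrays, and differed by -1.27 ± 0.23, 2.42-fold (adjusted p = 0.00174). HSP90AA1 was at 12.23, 11.84 and 11.58 in vitro and differed by -1.36 ± 0.25, 2.57-fold (adjusted p = 0.00184), a call that ended when its probe sets were averaged (-0.52). The CCT4 call ended without in vivo oocyte array 1 (-0.89), and the HSPA4 call without in vivo oocyte array 1 (-1.17) or 3 (-1.72), or any 1 of the in vitro arrays (-1.75 to -1.89). The HSPA4 call also ended when its probe sets were averaged (-0.62), and its other probe set had means of 8.89 in vitro and 8.30 in vivo. HSPA1A was at 11.78, 11.60 and 12.42 in vitro, HSPD1 at 12.12, 11.58 and 11.52, HSPE1 at 12.04, 12.22 and 12.24 and HSP90AB1 at 12.47, 12.24 and 12.44. None of these 4 passed, with differences of 0.53, -0.42, -0.16 and 0.48.

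In vivo oocyte array 2 was the lowest of the 3 in vivo arrays for 9 of the 10 genes and for 28 of all 58 tested members. Shares of all genes were not counted for this or for the fit without array 2. A shift of the whole array thus cannot be told from one of the members. Without array 2, 18 members passed, 17 of them lower in vitro (among them HSPA5 with -2.17, DNAJC11 with -2.56 and DNAJC5 with -2.40) and BAG2 higher. With arrays centred on spike-in controls 5 of the members passed, with poly-A controls 4, and with the spread taken from these 2 groups alone 0, with 16 at an unadjusted p under 0.05.

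The remaining steps moved few members. No member passed from 2-cell to 4-cell, with 1 at an unadjusted p under 0.05, where 0.0141% of all genes tested rose and 0% fell. With 2 arrays in each of these groups, only large differences could pass. Without 4-cell array 2, which leaves the marker-carrying 4-cell array 1, DNAJB9 passed (4.74). From morula to blastocyst 2 members rose and 0 fell, where 5.74% of all genes rose and 3.76% fell; at an unadjusted p under 0.05, 1 member was lower. DNAJB2, a J-domain protein with ubiquitin-binding motifs, was at 5.06, 4.93 and 5.04 in in vitro oocytes, 5.39, 4.87 and 5.43 in in vivo oocytes, 5.37, 5.45 and 4.83 in zygotes, 5.10 and 4.03 in 2-cell, 4.59 and 5.11 in 4-cell and 7.43, 5.19, 7.02 and 7.15 in 8-cell embryos. From morula to blastocyst it went from 4.92, 4.93 and 4.06 to 7.02, 5.98 and 6.28, by 1.79 ± 0.48, 3.46-fold (adjusted p = 0.0221). HSPH1 was at 11.51, 11.13 and 10.84 in in vitro oocytes, 11.64, 11.34 and 11.71 in in vivo oocytes, 12.03, 12.36 and 12.39 in zygotes, 12.61 and 12.36 in 2-cell, 12.49 and 12.44 in 4-cell and 11.83, 11.00, 11.15 and 12.04 in 8-cell embryos. From morula to blastocyst it went from 12.00, 11.18 and 11.38 to 12.69, 12.63 and 12.54, by 1.10 ± 0.27, 2.14-fold (adjusted p = 0.0116), with the sign turned under poly-A centring (-0.32). The HSPH1 call ended under spike-in centring (0.29) and when its probe sets were averaged (0.22), and both of its other tested probe sets, with means below 4 at these stages, were lower in blastocysts by differences of -0.16 and -0.05 that did not pass. Blastocyst array 1 was the highest for both genes and carried 2 epithelial markers. The DNAJB2 call ended without it (1.49), the HSPH1 call without morula array 2 (0.93), and both without morula array 3 (1.50 and 1.03). HSPBAP1, a protein that binds HSPB1, was at 10.07, 10.20 and 9.95 in in vitro oocytes, 9.96, 10.06 and 9.59 in in vivo oocytes, 9.75, 8.95 and 10.12 in zygotes, 8.69 and 9.26 in 2-cell, 9.22 and 9.72 in 4-cell and 9.39, 8.85, 8.19 and 9.04 in 8-cell embryos. Morulae were at 8.36, 7.62 and 7.05 and blastocysts at 7.36, 6.78 and 7.34, below all oocyte arrays. From in vivo oocyte to blastocyst this was a fall of 2.71 ± 0.38, 6.55-fold (adjusted p = 3.33e-06).

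Other genes of the folding machinery, in lists put together with earlier results of these data known, also moved in both directions. For comparison, 31.2% of all genes tested rose and 34.3% fell at the 8-cell stage, and 30% rose and 28.4% fell at the morula. In vitro, 11.7% were lower and 0.721% higher. Alternative settings were read for the members only, so whether calls in these lists hold under other centrings was not tested. Poly-A centring alone shifted the median of all probe sets by -1.92 at the 8-cell stage and by 2.49 at the morula. Of the heat shock transcription factors, HSF2 had means of 2.75 at 4-cell, 10.24 at 8-cell and 8.37 at morula, a rise of at least 75.4-fold (adjusted p = 1.10e-08) and a fall of 1.87 (adjusted p = 0.0118). HSF2BP, which binds HSF2, had means of 8.52 at 4-cell and 3.55 at 8-cell, at least 20.6-fold lower (adjusted p = 7.77e-09). HSF1, the main stress-activated factor, passed at no step, with stage means of 5.95 to 7.00 in vivo. Of 23 HSP90 and HSP70 partners, 7 rose and 6 fell at the 8-cell stage. PIH1D1, RUVBL1 and UNC45A were among those that rose (6.43, 3.96 and 3.51), as was PTGES3, the p23 co-chaperone of HSP90 (3.01), and the immunophilins FKBP5 and FKBP4 were among those that fell (-3.95 and -1.59). At the morula 4 rose and 7 fell, and FKBP4 was at least 18.1-fold higher there than at 8-cell. In vitro, 7 partners were lower and 0 higher, with a median difference of -0.85 over the 23, and with STIP1, the adaptor that joins HSP70 to HSP90, at -2.53 and RUVBL1 at -2.23.

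Of 19 tested genes for folding in the endoplasmic reticulum and its stress response, 5 rose and 6 fell at the 8-cell stage, and 9 rose and 2 fell at the morula. The background was 31.2% up and 34.3% down at the first step and 30% and 28.4% at the second, and the list's medians were -0.15 and 0.94, against -0.03 and 0.03 over all genes tested. MANF rose 31.4-fold at the 8-cell stage, and calreticulin (CALR), PDIA5 and TXNDC5 fell there (-4.21, -3.46 and -4.27). DDIT3, a transcription factor of the stress response, was higher by 1.41 at the 8-cell stage and fell by 3.95 at the morula. PDIA3 and PPIB rose at the morula (2.23 and 2.91). The differences of this list were likewise not read under other centrings. Of 13 other genes listed with the chaperonin and prefoldin, 5 rose and 4 fell at the 8-cell stage. One of the 13, VBP1, is itself a prefoldin subunit that lacks a PFDN symbol, with means of 10.06 at 4-cell and 13.04 at 8-cell. The fallers were all tubulin cofactors (TBCA, TBCB, TBCD and TBCE) and the risers were MKKS, PDCL3, URI1, UXT and VBP1. Of 9 mitochondrial folding and protease genes, 1 rose and 3 fell at the 8-cell stage, and 3 rose and 2 fell at the morula. The small heat shock proteins CRYAA, CRYAB and ODF1 did not pass the filter and were not tested.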

How the data were processed

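Poly(A) RNA of 23 samples was hybridised to Affymetrix bovine arrays. The deposited values are log2 expression values made by the authors with GCRMA 2.0.0, per the submitters' processing notes; GCRMA corrects background by probe sequence and forces arrays to 1 common distribution, so values are relative within an array. Of 24016 probe sets (112 controls left out), 13292 carry 1 symbol in the platform annotation. The 14571 probe sets above 4 on at least 2 arrays were tested with limma 3.58.1 in R 4.3.3 (a mean for each of 8 groups, 15 residual degrees of freedom, trended eBayes), with Benjamini-Hochberg adjustment over all of them and calls at an adjusted p under 0.05. Standard errors are those of the fit. Where any array of the lower group was below 4, its values below 4 were set to 4 and the fold is a lower bound. The number of arrays limits the precision, and p-values measure the spread between these arrays. Values on every array are given for up to 4 rises and 4 falls per comparison that passed without overlap, and for HSPA8, HSPA1A, HSP90AA1, HSP90AB1, HSPD1, HSPE1 and the TRiC subunits of largest and smallest 8-cell change. Members and lists were chosen with earlier results of these data known. Alternatives, read for the members only, covered the filter, the trend, the replicate number as a block, 4 array centrings, averaging all probe sets of a member, and arrays left out. The fit was tested on simulated data. Shares of all genes were counted at an adjusted p in the fit above only. They were not counted at an unadjusted p, for overlap of arrays or under the alternatives. Same-numbered arrays deviated together in some pairs only (correlations of -0.377 to 0.491 over 21 pairs, 5 above 0.1). The highest was that of 4-cell with 2-cell arrays, where 2 arrays per group give the same value for both pairs. The labels do not state a pairing, so numbers were not taken as pairs. No sequence table was used here.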

Additional observations from a re-analysis of the deposited data

Results flagged for a closer look

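The 4 arrays of the 8-cell group were the only group large enough to look for a single array apart from the others, and 58 members were looked at there. By Dixon's gap test, whose limit chance passes in about 1 of 20 groups, 3 were found. BAG4 was at 5.39 on 8-cell array 3, where the other 3 arrays were at 4.17 to 4.27. DNAJC27 was at 5.77 on 8-cell array 2, where the others were at 7.14 to 7.37. DNAJC9 was at 6.90 on 8-cell array 2, where the others were at 7.23 to 7.29.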

How the results depend on the processing

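Of 119 member changes that passed, 41 passed under every alternative run: 14 of 32 at the 8-cell stage, 13 of 32 at the morula, 14 of 41 from oocyte to blastocyst and 0 at the other steps. Centring on poly-A or hybridisation controls, all settings of single members that leave arrays out, and other settings of the F test were chosen after seeing the data. The causes of the changes below were not tested. In vitro against in vivo oocytes, the 10 calls became 5 with spike-in centring, 4 with poly-A centring, 0 with the spread of the 2 groups alone (limma; 16 at an unadjusted p under 0.05) and 8 to 18 leaving out 1 array each. For the zygote, the 1 call became 0 without a filter, with spike-in, poly-A or hybridisation centring, with the mean of probe sets and with the 2 groups alone, 6 without 4 arrays with markers (array 2 of the in vivo oocytes and array 1 of the 2-cell, 4-cell and blastocyst groups) and 0 to 6 leaving out 1 array; where limma gave 0, 2 to 9 members had an unadjusted p under 0.05. For the 2-cell embryo, the 1 call became 2 without a trend, with the mean of probe sets and without the 4 arrays, 0 with spike-in, poly-A or hybridisation centring and with the 2 groups alone, and 0 to 5 leaving out 1 array (10 to 18 at an unadjusted p where 0). From 2-cell to 4-cell it was 0 to 1 leaving out 1 array. From morula to blastocyst, the 2 calls became 4 without a filter, 12 with poly-A centring, 0 with spike-in or hybridisation centring, without the 4 arrays and with the 2 groups alone, and 0 to 3 leaving out 1 array (4 to 16 at an unadjusted p where 0). From oocyte to blastocyst, 41 became 25 with poly-A and 27 with hybridisation centring.

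Signs turned as follows. From 4-cell to 8-cell, poly-A centring gave BAG1 -0.55, DNAJB2 -0.05, DNAJC19 -0.65, DNAJC3 -0.06, HSPA8 -0.55 and PFDN6 -0.97, spike-in centring PFDN6 -0.19 and the mean of probe sets BAG2 1.15. From 8-cell to morula, poly-A centring gave BAG3 1.04, DNAJB2 0.44, DNAJB6 1.69, DNAJC14 0.61, DNAJC17 0.99, HSPA2 0.04, HSPBAP1 1.31 and PFDN6 1.98, spike-in centring DNAJB6 0.60, HSPBAP1 0.21 and PFDN6 0.89, and the mean of probe sets BAG2 -0.21. From morula to blastocyst, poly-A centring gave HSPH1 -0.32. From oocyte to blastocyst, poly-A centring gave BAG2 -0.57, BAG6 -0.20, CCT2 -0.46, CCT3 -0.23, CCT5 -0.10, DNAJB1 -0.06, DNAJB2 -0.01, HSP90AB1 -0.48, HSPE1 -0.16, HSPH1 -0.15, PFDN2 -0.71 and PFDN5 -0.00, spike-in centring BAG2 -0.20, CCT2 -0.09, HSP90AB1 -0.11 and PFDN2 -0.33, and the mean of probe sets DNAJB1 -1.66.

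With the replicate number as a block, counts over the 8 comparisons were 10, 1, 1, 0, 32, 32, 2 and 40, with 54 in the F test. The labels do not state that the numbers pair the arrays. Values below 4 give bounds, not levels.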
